A study of Mus musculus with 12 samples.

Results

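The 10 cytokine-related genes of dendritic cells (DCs) followed here were Il22ra2, which encodes the soluble IL-22 receptor IL-22BP, and 9 genes for cytokines or cytokine subunits made by DCs, namely Il12a, Il12b, Il23a, Il27, Ebi3, Il15, Il6, Tnf and Il10. They were chosen by symbol, and each symbol matched 1 Ensembl identifier. The files list 53801 genes, of which 20580 had at least 5 counts in at least 1 sample and were tested, and all 10 members were among the tested genes.

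IL-22BP is a secreted decoy receptor that binds IL-22 and keeps it from its receptor on epithelial cells. In the intestine it is made mainly by DCs, and innate lymphoid cells and T cells are the usual sources of IL-22 itself. IL-12, IL-23 and IL-27 are each built from a pair of chains: the p40 chain from Il12b joins p35 from Il12a to give IL-12 and p19 from Il23a to give IL-23, and the EBI3 chain joins p28 from Il27 to give IL-27. DCs use these cytokines, with IL-6, TNF, IL-10 and IL-15, to steer T cells and natural killer cells.

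The study compared 2 DC subsets of the mouse small intestine, sorted by flow cytometry as CD103+CD11b- and CD103-CD11b+ cells, with and without the transcription factor subunit Cbfβ. Cbfβ is the partner that Runx proteins need for stable binding to DNA. There were 3 samples in each of 4 groups: CD103+CD11b- and CD103-CD11b+ DCs labelled wild type (WT), and the same subsets labelled Cbfb-cKO (cKO), whose mice were Cbfb F/F with a CD11c-Cre transgene. All 12 samples were labelled gut DCs of mixed background, the labels give no age or treatment, and the study's text says that 3 different mice gave the samples of a group. CD11c-Cre acts in CD11c-expressing cells in general, the study notes activity in some T cells, and whether the WT mice carried the transgene is not given in the labels. The comparisons ask how loss of Cbfβ in CD11c-expressing cells altered each subset.

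Reads assigned to genes summed to between 2161929 and 5863484 per sample, with a median of 4144279, so that a count of 3 corresponded to between 0.485 and 1.53 CPM, the counts scaled to the size of a library. Transcripts of Cbfb as a whole did not separate the genotypes, with log2 fold changes of 0.17 and 0.14 in CD103+CD11b- and CD103-CD11b+ DCs (adjusted p = 0.876 and 0.744, quasi-likelihood F-test of edgeR after Benjamini-Hochberg correction). A count over the whole gene does not check the deleted segment. The labelled subsets were separated by the markers of cDC1s, the Batf3-dependent DCs that carry CD103: all 7 were lower in CD103-CD11b+ than in CD103+CD11b- DCs in both genotypes by the same test. At an adjusted p under 0.05 and a fold change over 1.3, 7% of all genes were lower there in WT and 6.81% in cKO mice. By these limits 3 of 6 markers of CD11b+ DCs were higher in CD103-CD11b+ DCs of WT mice (Itgam, Mgl2 and Cd209a), and 5 in cKO mice. The 6 summed to 366 to 626 CPM in WT CD103+CD11b- and 976 to 1032 CPM in WT CD103-CD11b+ DCs. In these sorted bulk samples, fewer cells of a type and less RNA per cell cannot be told apart.

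Il22ra2 was the member that differed most between genotypes. It fell in the cKO samples of both subsets, 75.1-fold in CD103+CD11b- and 19.9-fold in CD103-CD11b+ DCs, and it was at nearly the same level in the 2 subsets of WT mice. The gene (ENSMUSG00000039760) lies on the plus strand of chromosome 10 from 19621998 to 19634681 in GRCm38, and it overlaps no other annotated exon. In WT CD103+CD11b- DCs it stood at 237, 163 and 155 CPM in replicates 1, 2 and 3, and in the matching cKO samples at 0.888, 4.39 and 1.96 CPM. Every cKO sample of this subset was far below every WT sample, with no overlap. In CD103-CD11b+ DCs the WT samples were at 220, 114 and 227 CPM and the cKO samples at 5.16, 7.38 and 17.9 CPM. Here too the groups did not overlap, and cKO replicate 3 was the highest of the cKO samples. The 3 samples of a group together held 2361 counts of Il22ra2 in WT and 27 in cKO CD103+CD11b- DCs, and 2246 in WT and 89 in cKO CD103-CD11b+ DCs.

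The group means for Il22ra2 were 185 ± 45.1 CPM in WT and 2.41 ± 1.80 CPM in cKO CD103+CD11b- DCs (SD, n = 3), which on the log2 scale is a change of -6.23 (standard error, SE, 0.58, 95% interval -7.51 to -4.95, adjusted p = 0.00149, edgeR quasi-likelihood F-test, Benjamini-Hochberg). The CD103-CD11b+ means were 187 ± 63.3 and 10.1 ± 6.78 CPM (SD, n = 3), a log2 change of -4.31 (SE 0.51, 95% interval -5.44 to -3.19, adjusted p = 0.00298 by the same edgeR test). A gene was called changed where the adjusted p was under 0.05 and the fold change over 1.3. Among the 20580 genes ranked by p, Il22ra2 was in position 5 in CD103+CD11b- and 26 in CD103-CD11b+ DCs, and in position 2 in the comparison averaged over the subsets. It was called lower in both subsets, as were 13 genes in all, or 0.0632% of those tested. Without 1 sample the log2 fold change ranged from -7.11, without cKO CD103+CD11b- replicate 2, to -5.77 in CD103+CD11b- DCs, and from -4.90, without cKO CD103-CD11b+ replicate 3, to -3.95 in CD103-CD11b+ DCs, and the call was kept in all 12 fits of each. When only the 6 CD103-CD11b+ samples were fitted, the log2 fold change was -4.25 and the adjusted p was 0.0563 in the edgeR test, which ends the call in that subset. A filter that asked for 5 counts in every sample removed the gene, since 1 cKO sample held 4.

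The fall was numerically smaller in CD103-CD11b+ DCs, by 1.92 on the log2 scale (SE 0.74, 95% interval 0.29 to 3.55), but this difference between the subsets did not pass the threshold (adjusted p = 0.35, edgeR quasi-likelihood F-test, Benjamini-Hochberg). Between the WT subsets the log2 difference of Il22ra2, CD103-CD11b+ minus CD103+CD11b-, was 0.02 with a 95% interval of -0.91 to 0.95. In the cKO mice the residual level was 3.84-fold higher in CD103-CD11b+ than in CD103+CD11b- DCs, without overlap of the samples, with an adjusted p just over the threshold (log2 difference 1.94, SE 0.61, adjusted p = 0.051 by the same edgeR test). This difference was called with the replicate block within genotype (1.88, adjusted p = 0.0279, edgeR), with filterByExpr (adjusted p = 0.0472), with no filter (adjusted p = 0.0266) and with DESeq2 (2.02, adjusted p = 0.00344). It was also called without WT CD103-CD11b+ replicate 2 (1.90), cKO CD103-CD11b+ replicate 1 (2.25) or cKO CD103+CD11b- replicate 2 (2.82). Over the 12 fits without 1 sample it ranged from 1.36, without cKO CD103-CD11b+ replicate 3, to 2.82.

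**Figure D1:**
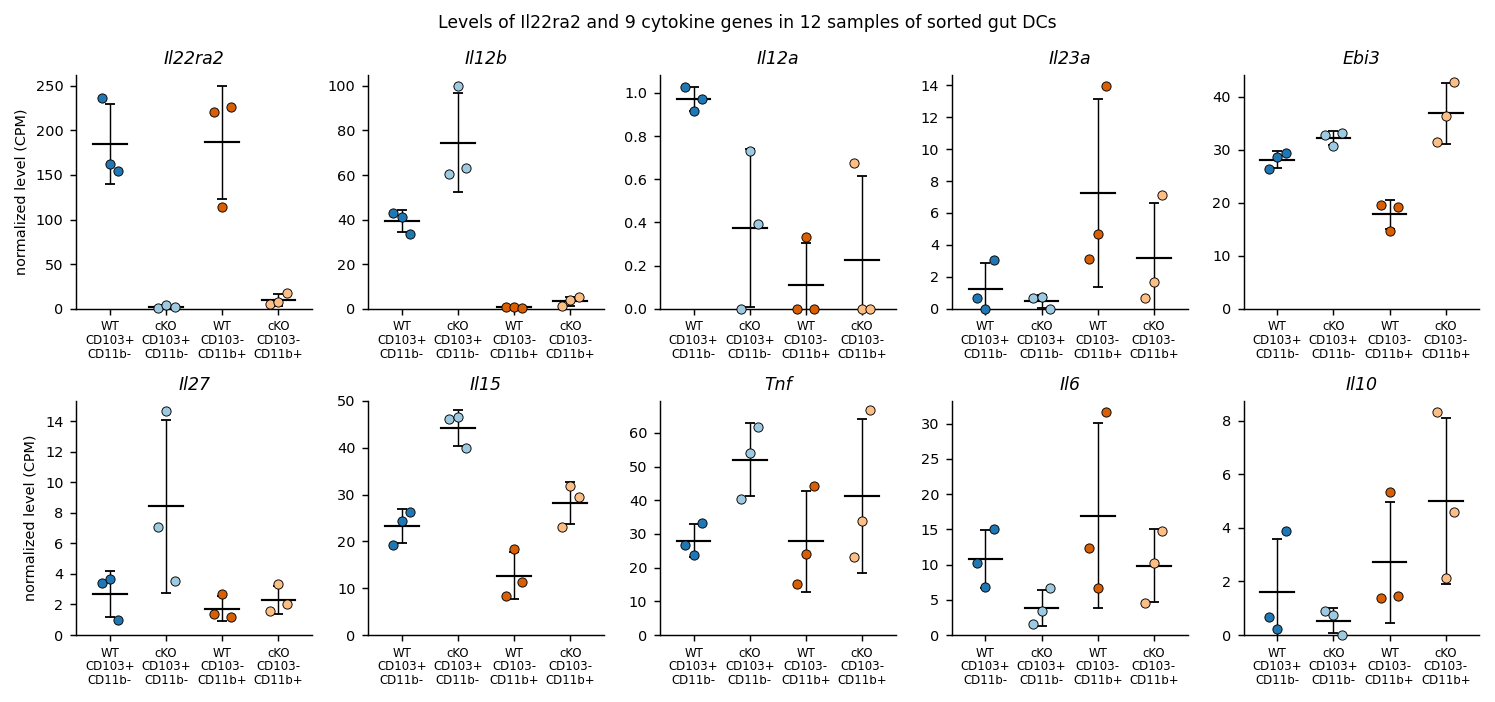
Level of each of the 10 members in CPM on linear axes that start at 0, 1 panel per gene, for WT and cKO samples of the 2 subsets. Points are the 3 samples of a group, bars the mean and error bars the SD. Il22ra2 stood at 114 to 237 CPM in the WT samples and at or below 17.9 CPM in the cKO samples, and Il12b stood at 33.6 CPM or more only in CD103+CD11b- DCs.

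Markers of other DCs also moved in CD103+CD11b- DCs. The summed level of 6 markers of CD11b+ DCs was 366 to 626 CPM in the WT and 84.1 to 137 CPM in the cKO samples of this subset, and 3 of the 6 were called lower, namely Sirpa (log2 fold change -2.74), Cd209a (-2.80) and Irf4 (-1.78). Of 7 cDC1 markers 0 were called by edgeR, with 2 at an unadjusted p under 0.05 and summed levels of 2861 to 3950 CPM in WT and 3984 to 4738 CPM in cKO samples. Of 4 plasmacytoid DC markers 0 were called in this subset by edgeR, with 4 at an unadjusted p under 0.05, and their summed level was 813 to 1836 CPM in WT and 372 to 703 CPM in cKO samples. Of the markers of the neighbouring CD103+CD11b+ gate, Clec4a4 (log2 fold change -4.27) and Trem1, which had 0 counts in all 3 cKO samples, were also called lower. Of 5 epithelial markers Epcam was called lower (-1.88) while the median of the 5 was 2.36, with summed levels of 39.3 to 52.6 CPM in WT and 12.1 to 53.5 CPM in cKO samples. Of 4 markers of type 3 innate lymphoid cells 0 were called by edgeR, with 1 at an unadjusted p under 0.05, and their sum was 88.0 to 196 CPM in WT and 12.5 to 64.7 CPM in cKO samples. Of 5 T cell markers 0 were called by edgeR, with 1 at an unadjusted p under 0.05, and their sum was 56.1 to 85.8 CPM in WT and 30.2 to 39.1 CPM in cKO samples. The part of these cells in the fall of Il22ra2 in CD103+CD11b- DCs was not tested.

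In CD103-CD11b+ DCs the CD11b+ DC markers did not fall with Il22ra2: their sum was 976 to 1032 CPM in WT and 1027 to 1623 CPM in cKO samples, and 0 of 6 were called by the quasi-likelihood F-test of edgeR, with 1 at an unadjusted p under 0.05. Of the markers of the CD103+CD11b+ gate, Clec4a4 was called higher (log2 fold change 1.71) and Itgae, which encodes CD103, lower (-1.89). Also called higher in the cKO samples of this subset were Adgre1 of macrophages (log2 fold change 1.93), Ms4a1 of B cells (3.72) and Csf3r of neutrophils (1.44). Each was the only one of its list that was called, and the median log2 fold change was -0.10 over 9 macrophage, 1.58 over 5 B cell and 0.08 over 3 neutrophil markers. Of 5 epithelial markers 0 were called by edgeR, with 3 at an unadjusted p under 0.05, a median of -1.21 and sums of 66.0 to 127 CPM in WT and 27.1 to 53.0 CPM in cKO samples. The summed level of the macrophage markers was 273 to 494 CPM in WT and 403 to 530 CPM in cKO samples, and that of the B cell markers 14.5 to 72.3 CPM in WT and 65.8 to 382 CPM in cKO samples. The part of all these cells in the results for this subset was not tested.

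**Figure D2:**
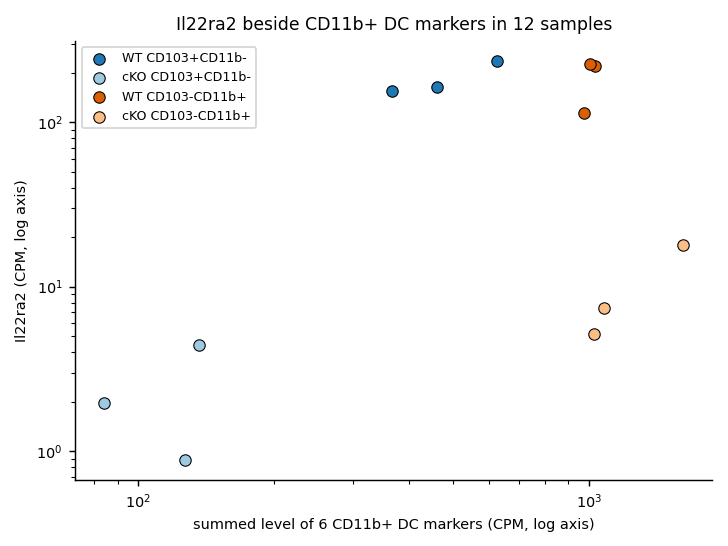
Il22ra2 in CPM (vertical, log axis) against the summed CPM of 6 CD11b+ DC markers (horizontal, log axis), with 1 point for each of the 12 samples, coloured by group. The WT and cKO CD103-CD11b+ samples lie at like marker sums, from 976 to 1623 CPM, and 114 CPM or more against at most 17.9 CPM of Il22ra2. Both values were lower in the cKO samples of CD103+CD11b- DCs.

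Of the IL-12 and IL-23 chains, Il12b, the shared p40 chain, set the subsets apart. It was 62.0-fold lower in CD103-CD11b+ than in CD103+CD11b- DCs of WT mice, and 23.7-fold lower in the cKO mice. It was also 3.08-fold higher in cKO than in WT samples when both subsets were averaged, although neither subset alone passed the threshold. Il12b (ENSMUSG00000004296) lies on the plus strand of chromosome 11 from 44400063 to 44414033. In CD103+CD11b- DCs the WT samples were at 43.1, 41.0 and 33.6 CPM and the cKO samples at 60.4, 100.1 and 63.0 CPM. The CD103-CD11b+ samples were at 0.783, 0.666 and 0.291 CPM in WT and at 1.12, 3.81 and 5.10 CPM in cKO mice. The genotypes did not overlap in either subset, and every CD103-CD11b+ sample was below every CD103+CD11b- sample, but the WT CD103-CD11b+ level rested on 7 counts in 3 samples.

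The log2 difference of Il12b between the subsets, CD103-CD11b+ minus CD103+CD11b-, was -5.95 in WT mice (SE 0.51, adjusted p = 5.79e-05) and -4.57 in cKO mice (SE 0.43, adjusted p = 4.90e-05) by the quasi-likelihood F-test of edgeR after Benjamini-Hochberg correction. The log2 fold change between genotypes was 0.93 in CD103+CD11b- DCs (SE 0.35, adjusted p = 0.328) and 2.31 in CD103-CD11b+ DCs (SE 0.58, 95% interval 1.04 to 3.59, adjusted p = 0.0722) by the same edgeR test. Averaged over the subsets it was 1.62 (SE 0.34, adjusted p = 0.0319, edgeR). That call was lost in 10 of the 12 fits that left out 1 sample, with adjusted p between 0.00698 and 0.0916 over the 12, and was kept only without cKO CD103+CD11b- replicate 3 or cKO CD103-CD11b+ replicate 1. Without cKO CD103-CD11b+ replicate 1, its log2 fold change within CD103-CD11b+ DCs was 2.80 and was called (adjusted p = 0.0168, edgeR).

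Il12a, the p35 chain of IL-12 (ENSMUSG00000027776, chromosome 3, plus strand, 68690644 to 68698547), was near the limit of detection. The counts in replicates 1, 2 and 3 were 3, 4 and 6 in WT CD103+CD11b- DCs and 0, 3 and 1 in the cKO samples. The CD103-CD11b+ counts were 0, 1 and 0 in WT and 3, 0 and 0 in cKO samples. No difference of Il12a between groups passed the threshold. The smallest unadjusted p, 0.044, was between the WT subsets (adjusted p = 0.134, quasi-likelihood F-test of edgeR after Benjamini-Hochberg correction), where the totals were 13 counts and 1 count. At these counts a fitted fold change depends on the prior count, and none is interpreted.

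Il23a, the p19 chain of IL-23 (ENSMUSG00000025383, chromosome 10, minus strand, 128296139 to 128298752), was highest in WT CD103-CD11b+ DCs, at 3.13, 4.66 and 13.96 CPM. The cKO samples of that subset were at 0.674, 1.67 and 7.14 CPM and overlapped with the WT samples. Of the CD103+CD11b- DCs the WT samples were at 0.684, 0 and 3.07 CPM and the cKO samples at 0.666, 0.732 and 0 CPM. Replicate 3 was the highest in 3 of the 4 groups, and in WT CD103+CD11b- DCs it held 19 of the 21 counts. Without that sample the log2 fold change in CD103+CD11b- DCs was 0.76, against -1.34 with it, and neither was called. The log2 fold change in CD103-CD11b+ DCs was -1.32 (SE 1.08, adjusted p = 0.556), and the log2 difference between the WT subsets was 2.39 (SE 1.10, adjusted p = 0.152), both by the quasi-likelihood F-test of edgeR after Benjamini-Hochberg correction.

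Per kilobase of exon, Il12b was above Il12a in 3 of 3 samples of every group. Its mean was 19.9 CPM per kb against 0.571 for Il12a in WT, and 37.9 against 0.220 in cKO CD103+CD11b- DCs. Against Il23a the order depended on the group. In both CD103+CD11b- groups Il12b was above Il23a in 3 of 3 samples. In WT CD103-CD11b+ DCs it was above in 0 of 3, with means of 0.295 CPM per kb for Il12b and 3.23 for Il23a, and in the cKO samples of that subset in 2 of 3, with means of 1.70 and 1.41 CPM per kb, an order of the means that turned to 1.72 and 1.83 with the length of the longest transcript.

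Ebi3, the chain that joins p28 in IL-27, was the other member called between genotypes within a subset. It rose 2.06-fold in the cKO samples of CD103-CD11b+ DCs. Ebi3 (ENSMUSG00000003206) lies on the plus strand of chromosome 17 from 55952640 to 55957022. The WT CD103-CD11b+ samples were at 19.6, 14.7 and 19.2 CPM and the cKO samples at 31.4, 36.4 and 42.8 CPM. All 3 cKO samples were above all 3 WT samples. The CD103+CD11b- WT samples were at 26.3, 28.6 and 29.4 CPM and the cKO samples at 32.8, 30.8 and 33.2 CPM, a small shift without overlap. On the log2 scale the change was 1.04 in CD103-CD11b+ (SE 0.17, 95% interval 0.68 to 1.40, adjusted p = 0.0127) and 0.20 in CD103+CD11b- DCs (SE 0.16, adjusted p = 0.802) by the quasi-likelihood F-test of edgeR after Benjamini-Hochberg correction.

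The difference between these fold changes of Ebi3 was 0.84 on the log2 scale (SE 0.23, 95% interval 0.34 to 1.35) and did not pass the threshold (adjusted p = 0.175 by the same edgeR test). In WT mice Ebi3 was 1.58-fold lower in CD103-CD11b+ than in CD103+CD11b- DCs (log2 difference -0.66, SE 0.17, adjusted p = 0.0211, edgeR), a call lost without WT CD103+CD11b- replicate 2 (-0.68, adjusted p = 0.0652) or WT CD103-CD11b+ replicate 2 (-0.57, adjusted p = 0.0535). A fit of only the 6 WT samples also lost this call (-0.68, adjusted p = 0.0722, edgeR). In cKO mice the difference was 0.19. The call between genotypes in CD103-CD11b+ DCs was lost when only the 6 samples of that subset were fitted (log2 fold change 1.08, adjusted p = 0.163, edgeR), and was kept in all 12 fits without 1 sample. Ebi3 shares 270 exon bases with the antisense gene Gm16712. The counting ignored strand, and by default it sets aside reads that fall on 2 genes, so that reads in these bases may be missing from the count.

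Il27, the p28 chain (ENSMUSG00000044701, chromosome 7, minus strand, 126589010 to 126594941), was at 3.42, 3.66 and 0.970 CPM in WT and 7.10, 14.6 and 3.52 CPM in cKO CD103+CD11b- DCs. The groups overlapped in this subset, with cKO replicate 2 the highest. It was at 1.37, 2.67 and 1.16 CPM in WT and 1.57, 3.33 and 2.04 CPM in cKO samples of CD103-CD11b+ DCs. The log2 fold changes of 1.69 in CD103+CD11b- (SE 0.62, adjusted p = 0.324) and 0.45 in CD103-CD11b+ DCs (SE 0.68, adjusted p = 0.774) did not pass the quasi-likelihood F-test of edgeR after Benjamini-Hochberg correction. Il27 shares 103 exon bases with Apobr on the opposite strand, to which the same limit applies. Between the cKO subsets Il27 was lower in CD103-CD11b+ DCs without overlap, with a log2 difference of -1.85 that was not called without a block (adjusted p = 0.0709, edgeR) and of -1.83 that was called with the replicate block within genotype (adjusted p = 0.0219, edgeR). It was also called without WT CD103+CD11b- replicate 3 (-1.89, adjusted p = 0.0408, edgeR) or cKO CD103+CD11b- replicate 3 (-2.20, adjusted p = 0.0467, edgeR). DESeq2 called this difference of Il27 as well (-1.87, adjusted p = 0.0447). Per kilobase, Ebi3 was above Il27 in 3 of 3 samples of every group, with ratios of the means of 9.27 in WT and 3.39 in cKO CD103+CD11b- DCs, and of 9.09 in WT and 14.1 in cKO CD103-CD11b+ DCs.

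Promoter sequence was looked at for the Runx motif, since Runx proteins with Cbfβ bind DNA at it. RefSeq windows on GRCm38.p6, from 250 bases before to 50 bases after a gene's start, were matched by symbol for 5 of the 10 members: Il12b, Ebi3, Il6, Tnf and, with 2 windows, Il12a. The letters TGTGGT and TGCGGT were searched on both strands. Of 32851 such windows of all genes, 16.8% held the first, 6.45% the second and 22.4% either. Among the members only the second window of Il12a held a match, TGTGGT, 126 bases before that start and within the annotated gene. The windows of Il12b and Ebi3, the members called between genotypes or subsets that had one, held neither. Printed below are the 250 bases before the start of these 2 genes, at chr11:44399813-44400062 and chr17:55952373-55952622, and the 26 bases around the match in Il12a at chr3:68691288-68691313, with the motif in capitals and all 3 on the plus strand. A match describes the letters and is not a binding site, and its absence says only that these letters are not in the window.
Il12b: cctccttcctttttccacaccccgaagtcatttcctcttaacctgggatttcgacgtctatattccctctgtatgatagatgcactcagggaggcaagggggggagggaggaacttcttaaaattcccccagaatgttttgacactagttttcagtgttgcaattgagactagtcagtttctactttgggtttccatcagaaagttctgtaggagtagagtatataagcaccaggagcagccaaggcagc
Ebi3: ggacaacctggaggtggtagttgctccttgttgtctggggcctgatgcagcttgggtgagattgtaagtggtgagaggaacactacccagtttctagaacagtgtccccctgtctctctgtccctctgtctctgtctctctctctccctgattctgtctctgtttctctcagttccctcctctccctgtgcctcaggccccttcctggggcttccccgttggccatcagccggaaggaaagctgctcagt
Il12a: tcgctctgagTGTGGTgggcggtggg

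Il15, a cytokine that maintains natural killer cells and memory CD8+ T cells, was higher in the cKO samples of both subsets without overlap, and passed the threshold when the subsets were averaged (2.06-fold). The gene (ENSMUSG00000031712) lies on the minus strand of chromosome 8 from 82331632 to 82403222. The WT CD103+CD11b- samples were at 19.1, 24.2 and 26.4 CPM and the cKO samples at 46.2, 46.6 and 39.9 CPM. Among CD103-CD11b+ DCs the WT samples were at 8.42, 18.3 and 11.3 CPM and the cKO samples at 23.1, 31.9 and 29.6 CPM. Each cKO sample was above each WT sample of its subset. On the log2 scale Il15 differed by 0.92 in CD103+CD11b- (SE 0.26, adjusted p = 0.145) and 1.16 in CD103-CD11b+ DCs (SE 0.27, adjusted p = 0.0548), and 1.04 averaged over both (SE 0.18, adjusted p = 0.0157), by the quasi-likelihood F-test of edgeR after Benjamini-Hochberg correction.

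The averaged call of Il15 was lost without WT CD103+CD11b- replicate 1 (log2 fold change 0.98, adjusted p = 0.0505, edgeR). Il15 passed the threshold in CD103-CD11b+ DCs without WT CD103-CD11b+ replicate 2 (1.53, adjusted p = 0.016, edgeR). The log2 difference between its fold changes in the subsets was 0.24, with a 95% interval of -0.56 to 1.04. In WT mice Il15 was 1.86-fold lower in CD103-CD11b+ than in CD103+CD11b- DCs (log2 difference -0.89, SE 0.26, adjusted p = 0.0379, edgeR). That call was lost in 7 of the 12 fits without 1 sample, namely without any of the 3 WT CD103+CD11b- samples, WT CD103-CD11b+ replicate 1 or 3, or cKO CD103+CD11b- replicate 1 or 2, over a range of -1.28 to -0.71. A fit of only the 6 WT samples also lost this call (-0.92, adjusted p = 0.0988, edgeR).

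Tnf and Il6, the inflammatory cytokines of the group, were called in none of the 6 comparisons in the fit without a replicate block. With the block Tnf was called when the subsets were averaged (log2 fold change 0.73, adjusted p = 0.0427, edgeR). Tnf (ENSMUSG00000024401, chromosome 17, minus strand, 35199381 to 35202007) was at 26.7, 23.8 and 33.3 CPM in WT and 40.4, 53.9 and 61.8 CPM in cKO CD103+CD11b- DCs. The cKO samples of this subset were all above the WT samples, but the log2 fold change of 0.89 (SE 0.42, adjusted p = 0.503) did not pass the quasi-likelihood F-test of edgeR after Benjamini-Hochberg correction. The other subset had Tnf at 15.1, 23.99 and 44.2 CPM in WT and 23.1, 33.8 and 66.8 CPM in cKO samples. These groups overlapped, with replicate 3 the highest in each, and the log2 fold change was 0.56 (SE 0.42, adjusted p = 0.522, edgeR).

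Il6 (ENSMUSG00000025746, chromosome 5, plus strand, 30013114 to 30019981) was at 10.3, 6.86 and 15.04 CPM in WT and 1.55, 3.42 and 6.65 CPM in cKO CD103+CD11b- DCs. The cKO samples were all below the WT samples in this subset, by a narrow gap. Il6 in CD103-CD11b+ DCs was at 12.3, 6.66 and 31.7 CPM in WT and 4.49, 10.2 and 14.8 CPM in cKO samples, and the groups overlapped. The log2 fold changes were -1.52 (SE 0.68, adjusted p = 0.463) and -0.81 (SE 0.64, adjusted p = 0.544), and neither passed the quasi-likelihood F-test of edgeR after Benjamini-Hochberg correction. Without a single sample the second ranged from -1.20 to 0.03, so that its direction rested on WT CD103-CD11b+ replicate 3. Between the cKO subsets Il6 was higher in the CD103-CD11b+ sample of each same-numbered pair, and with the replicate block within genotype the log2 difference was 1.40 and was called (adjusted p = 0.0162, edgeR), against 1.36 and no call without the block.

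Il10, which restrains inflammation (ENSMUSG00000016529, chromosome 1, plus strand, 131019845 to 131024974), was low throughout. In CD103+CD11b- DCs it was at 0.684, 0.229 and 3.88 CPM in WT and 0.888, 0.732 and 0 CPM in cKO samples. The CD103-CD11b+ values were 1.37, 5.33 and 1.45 CPM in WT and 8.31, 2.14 and 4.59 CPM in cKO samples. The genotypes overlapped in both subsets, and 24 of the 27 counts in WT CD103+CD11b- DCs came from replicate 3. With that sample the log2 fold change in CD103+CD11b- DCs was -1.48 and without it 0.45, and neither was called. The cKO CD103-CD11b+ samples were all above the cKO CD103+CD11b- samples, with a log2 difference of 3.02 (SE 1.06, adjusted p = 0.0765, edgeR quasi-likelihood F-test, Benjamini-Hochberg). It was called without WT CD103+CD11b- replicate 3 (2.98, adjusted p = 0.0403, edgeR) and with DESeq2 (3.12, adjusted p = 0.035).

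Counted over the members, 1 of 10 was called between genotypes in CD103+CD11b- DCs, against 1.02% of all genes tested. That call was lower, as were calls for 0.797% of all genes. There 5 of 10 were at an unadjusted p under 0.05, against 10.5% of all genes, and 7 of 10 did not overlap between genotypes, against 18.1%. Il12b, Ebi3, Tnf and Il15 were the 4 higher ones (7.51% of all genes), and Il22ra2, Il6 and, at very low counts, Il12a the 3 lower ones (10.6%). Within CD103-CD11b+ DCs 2 of 10 were called, against 1.61%, with Ebi3 among the 1.11% of genes called higher and Il22ra2 among the 0.5% called lower. There 4 of 10 were at an unadjusted p under 0.05, against 17.4%, and 4 of 10 did not overlap, against 20.1%. Il12b, Ebi3 and Il15 were higher (9.75% of all genes) and Il22ra2 lower (10.3%). The median log2 fold change of the members was -0.57 and 0.74 in the 2 subsets, beside -0.02 and -0.06 over all genes. The -0.57, in CD103+CD11b- DCs, is the midpoint of Il12a (-1.33) and Ebi3 (0.20), with 5 members above 0 and 5 below. Of those below, Il12a had counts too low to interpret its sign, and Il23a and Il10 turned positive without 1 sample. No direction of the members as a set is drawn from this median.

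Averaged over the subsets, 4 of 10 were called, against 2.49% of all genes, with Il22ra2 lower (1.32% of all genes) and Il12b, Ebi3 and Il15 higher (1.17%). Of the 10, 7 were at an unadjusted p under 0.05, against 16.6%. The averaged log2 fold change of Ebi3 was 0.62 (SE 0.12, adjusted p = 0.0199, edgeR quasi-likelihood F-test, Benjamini-Hochberg), a call lost without WT CD103+CD11b- replicate 1 (0.60, adjusted p = 0.0658) or 2 (0.64, adjusted p = 0.0551) or cKO CD103+CD11b- replicate 1 (0.61, adjusted p = 0.0585). For the difference of the genotype effect between subsets, 0 of 10 were called by edgeR and 0 by DESeq2, against 0.651% of all genes, and 2 were at an unadjusted p under 0.05, Il22ra2 and Ebi3, against 11.1%. The within-subset, averaged and difference comparisons were taken from the same 12 samples.

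Between the subsets, 3 of 10 members were called in WT mice, all lower in CD103-CD11b+ DCs (Il12b, Ebi3 and Il15), against 7% of all genes called lower and 18.8% called in either direction. There 4 of 10 were at an unadjusted p under 0.05, against 34.3%, and 5 of 10 did not overlap, against 38.1%: Il23a was higher (21.4% of all genes), and Il12b, Ebi3, Il15 and, at very low counts, Il12a were lower (16.7%). In cKO mice 1 of 10 was called, Il12b, lower as were 6.81% of all genes, against 16.1% in either direction. With the replicate block within genotype 4 of 10 were called, with Il22ra2, Il6 and Il27 added, against 21.5% of all genes in that fit. Of the 10, 5 were at an unadjusted p under 0.05, against 31.9%, and 5 did not overlap, against 34%: Il22ra2 and Il10 were higher (18.4%) and Il12b, Il27 and Il15 lower (15.6%). The comparisons between subsets and between genotypes share samples, so their values stand side by side.

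**Figure D3:**
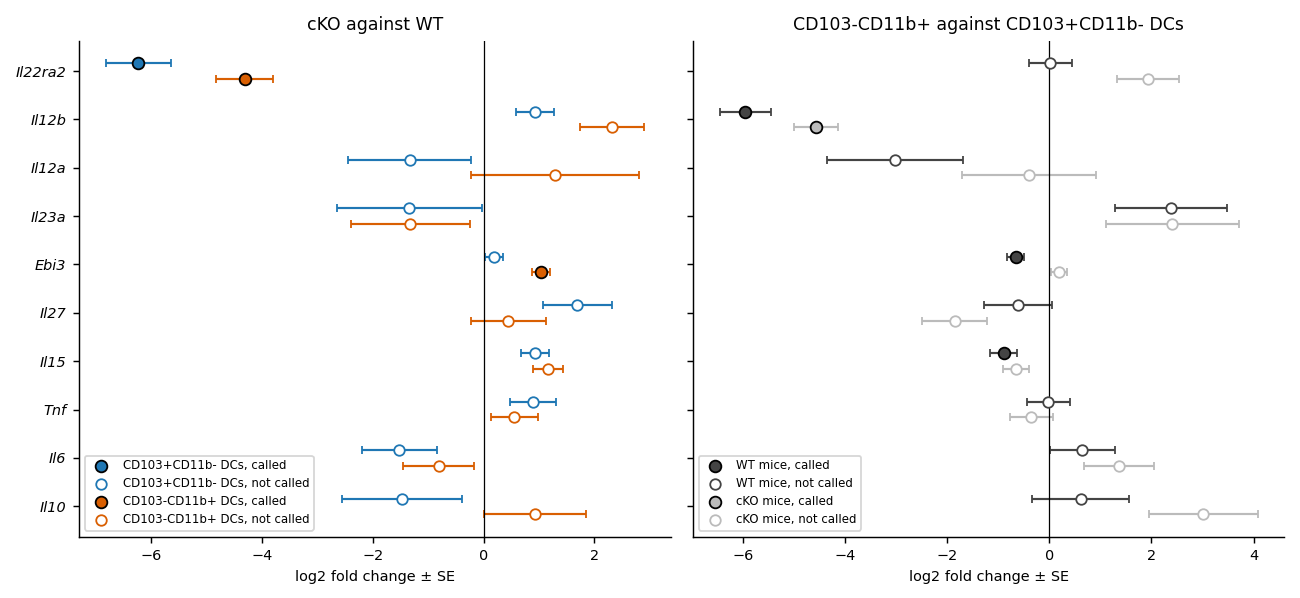
Log2 fold changes of the 10 members from the edgeR fit. The left panel gives cKO against WT in each subset and the right panel CD103-CD11b+ against CD103+CD11b- in each genotype. Points are estimates, bars their standard errors, and filled points passed an adjusted p of 0.05 and a fold change of 1.3. Il22ra2 stood at -6.23 and -4.31 on the left and at 0.02 in WT mice on the right, where Il12b was at -5.95 and -4.57.

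Levels per kilobase of exon, the scale on which genes can be set side by side, gave the order of the members in each group. In WT CD103+CD11b- DCs the mean was 74.0 CPM per kb for Il22ra2, then 24.4 for Ebi3, 19.9 for Il12b, 17.0 for Tnf, 10.3 for Il15 and at most 4.42 for the other members. Il12b and Tnf overlapped, as did each neighbouring pair from Il6 downward, and the other neighbours were apart in all 3 samples. In WT CD103-CD11b+ DCs Il22ra2 also came first, at 74.8 CPM per kb, followed by Tnf at 16.9, Ebi3 at 15.4, Il6 at 6.96 and Il15 at 5.62. Beyond Il22ra2, the only neighbours without overlap there were Il27 at 1.70 and Il12b at 0.295.

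In cKO CD103+CD11b- DCs the order was led by Il12b at 37.9, Tnf at 31.8 and Ebi3 at 28.0 CPM per kb, with overlap between Il12b and Tnf and between Tnf and Ebi3, ahead of Il15 at 19.6 and Il27 at 8.25. Il22ra2 came 7th, at 0.966 CPM per kb, and overlapped with Il6 above and Il10 below it. In cKO CD103-CD11b+ DCs Ebi3 led at 32.0 CPM per kb, overlapping with Tnf at 25.2, ahead of Il15 at 12.5. Il22ra2 was 4th at 4.06 CPM per kb and overlapped with Il6 at 4.05, which was ahead of it at 4.198 with the length of the longest transcript. Of the summed level of the 10 members per kilobase, Il22ra2 made up 54.7, 45.5 and 41.7% in the WT CD103+CD11b- and 69.2, 49.0 and 56.3% in the WT CD103-CD11b+ samples. In the cKO samples it made up 0.314, 1.17 and 0.635% and 3.20, 3.65 and 6.19%, below every WT sample.

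**Figure D4:**
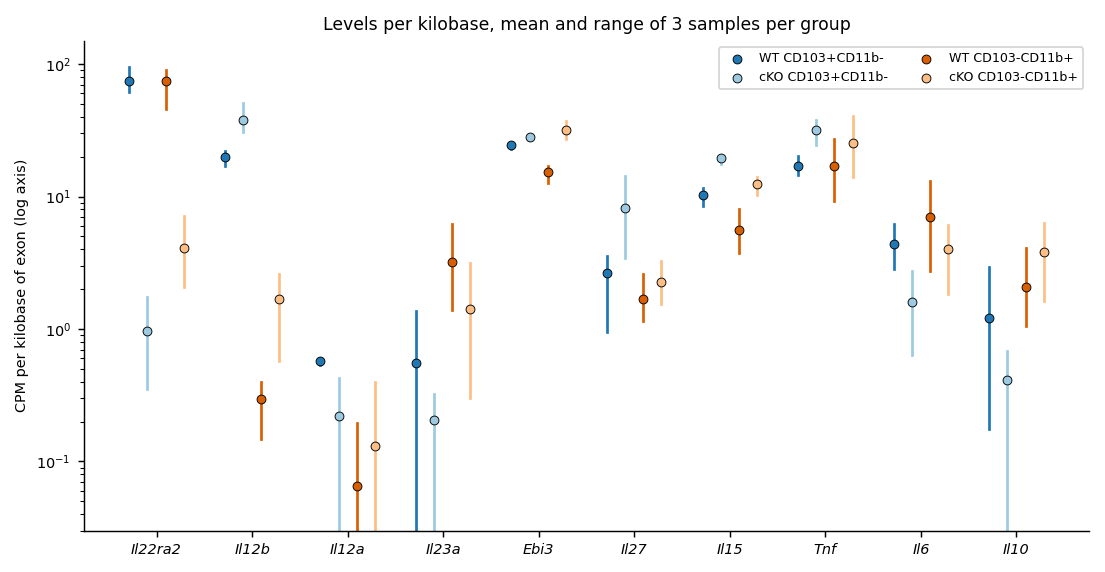
Level of each member in CPM per kilobase of exon (log axis) in each of the 4 groups. Points are means of 3 samples, lines span the lowest to the highest sample, and lines that reach the bottom of the axis include a sample at 0. Il22ra2 had the highest mean in both WT groups, at 74.0 and 74.8, against 0.966 and 4.06 in the cKO groups.

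Of the receptors for these cytokines, 13 of 14 listed genes were tested. In CD103+CD11b- DCs 1 was called between genotypes: Il15ra, the chain that presents IL-15, rose from 19.2 ± 1.54 to 61.8 ± 34.7 CPM (SD, n = 3), with the cKO samples spread from 32.9 to 100.3 CPM (log2 fold change 1.69, SE 0.33, adjusted p = 0.042, edgeR quasi-likelihood F-test, Benjamini-Hochberg). Il15ra in CD103-CD11b+ DCs was at 39.0 ± 7.98 CPM in WT and 59.9 ± 4.33 CPM in cKO samples (SD, n = 3), a log2 change of 0.62 that did not pass the same edgeR test (adjusted p = 0.341). Of the 13 receptors 0 were called in CD103-CD11b+ DCs by edgeR, with 4 at an unadjusted p under 0.05. Il22ra1, the signalling receptor for IL-22, had at most 1 count in any sample and was not tested. Between the WT subsets 3 of the 13 were called, against 18.8% of all genes. These were Il6ra (log2 difference 0.74), Il6st (0.71) and Il2rg (0.92), chains of the receptors for IL-6 and IL-15, all higher in CD103-CD11b+ DCs.

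Among 15 JAK and STAT genes and their inhibitors, 0 were called in CD103+CD11b- DCs by edgeR, with 4 at an unadjusted p under 0.05, and 2 in CD103-CD11b+ DCs. Of these, Socs3, an inhibitor of signalling by IL-6 family receptors, fell from 332 to 185 CPM (log2 fold change -0.84, SE 0.18, adjusted p = 0.0422) by the quasi-likelihood F-test of edgeR after Benjamini-Hochberg correction. Between the WT subsets 6 of the 15 were called, against 18.8% of all genes: Jak3, Socs2, Socs3 and Cish were higher and Tyk2 and Stat2 lower in CD103-CD11b+ DCs, with log2 differences from -0.82 for Tyk2 to 2.73 for Cish.

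Il22, the ligand that IL-22BP binds, was at the edge of detection in these DC sorts, with 23 counts over the 3 WT and 0 over the 3 cKO samples of CD103+CD11b- DCs, and 1 and 7 counts in WT and cKO CD103-CD11b+ DCs. The WT CD103+CD11b- samples had a median of 0.342 and a highest value of 3.56 CPM, since replicate 3 gave 22 of the 23 counts, and the 7 counts in cKO CD103-CD11b+ DCs came from 1 sample. The same WT CD103+CD11b- replicate 3 held most of the counts of Il23a and Il10 in its group. Of 9 listed genes of the IL-10 family and its receptors, 3 were tested (Il22, Ifnlr1 and Il20rb) and 0 were called in either subset by edgeR, with 0 at an unadjusted p under 0.05 in CD103+CD11b- and 1 in CD103-CD11b+ DCs. Of 8 genes for inflammasome cytokines and their receptors, which bear on IL-22 and IL-22BP in the gut, 0 were called in CD103+CD11b- DCs by edgeR, with 2 at an unadjusted p under 0.05. Il18 rose from 4.45 ± 1.84 to 32.5 ± 2.73 CPM in CD103-CD11b+ DCs (SD, n = 3, log2 fold change 2.85, SE 0.39, adjusted p = 0.00656, edgeR quasi-likelihood F-test, Benjamini-Hochberg). In this subset Il18 was higher and Il22ra2 lower in the same 3 cKO samples. These share the genotype, and a link between the 2 genes was not tested. The log2 fold change of Il18 in CD103+CD11b- DCs was 1.52 (adjusted p = 0.151, edgeR). Between the WT subsets 4 of the 8 were called, against 18.8% of all genes. These were Il18 (log2 difference 1.51), Il18rap (3.85), Il1b (1.04) and Casp1 (1.01), all higher in CD103-CD11b+ DCs.

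Of 14 transcription factors that act on DC cytokine genes, 1 was called between genotypes in CD103+CD11b- DCs, Irf4, a factor of CD11b+ DCs, which fell from 179 ± 34.8 to 52.5 ± 14.5 CPM (SD, n = 3, log2 fold change -1.78, SE 0.30, adjusted p = 0.024, edgeR quasi-likelihood F-test, Benjamini-Hochberg). Of the 14, 0 were called in CD103-CD11b+ DCs by edgeR, with 3 at an unadjusted p under 0.05, and the log2 fold change of Irf4 was -0.01. Between the WT subsets 10 of the 14 were called, against 18.8% of all genes, among them Irf8 (log2 difference -2.20), Irf5 (-0.75) and Batf3 (-0.47) lower and Prdm1 (3.46), Nfkbiz (1.26) and Rela (0.42) higher in CD103-CD11b+ DCs. Of 9 genes for the decay of cytokine mRNA and the shedding of TNF, 0 were called in either subset by edgeR, with 2 at an unadjusted p under 0.05 in each. Of the 4 Runx and Cbfb genes 0 were called in either subset by edgeR, with 2 at an unadjusted p under 0.05 in CD103+CD11b- and 3 in CD103-CD11b+ DCs. Averaged over the subsets, Rhbdf2, which takes part in the shedding of TNF, was called lower (log2 fold change -0.96, adjusted p = 0.0396) and Runx1 higher (0.58, adjusted p = 0.0471) by the quasi-likelihood F-test of edgeR after Benjamini-Hochberg correction, 1 gene of each list, against 2.49% of all genes. Both were named after their values were seen. In the same average 2 of the 13 receptors (Il6ra and Il15ra, higher), 2 of the 15 JAK and STAT genes, 1 of the 8 inflammasome genes (Il18, higher) and 1 of the 14 transcription factors (Irf4, lower) were called.

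The genes whose log2 CPM most resembled that of Il22ra2 over the 12 samples, among 12644 genes with a mean of 5 CPM or more, were Plet1 (Pearson r = 0.92), Pxylp1 (0.91), Acot11 (0.91), Nceh1 (0.91), Paqr3 (0.91), Cyth4 (0.91), Cd7 (0.90), Vps26b (0.90), Fbxo22 (0.89) and 2510016D11Rik (0.89). These values describe likeness only, since the 12 samples share genotype, subset and library depth. Plet1 had means of 60.7 and 1.33 CPM in WT and cKO CD103+CD11b- DCs and of 64.1 and 16.3 CPM in WT and cKO CD103-CD11b+ DCs. Cd7 had means of 45.8, 9.82, 39.7 and 23.9 CPM in the same order. Both were at like levels in the WT subsets and lowest in cKO CD103+CD11b- DCs, as Il22ra2 was. This shared order follows from choosing them by likeness to Il22ra2 over the same samples.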

How the data were processed

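RNA of sorted DCs was amplified by the study with a RamDA-seq method (random-primed full-length cDNA) and cut with Tn5. The authors deposited raw counts of reads per gene, 1 file for each of the 12 samples, with Ensembl gene identifiers on mm10 (GRCm38), after removing reads of low mapping quality and duplicates. The submitters' processing notes name CASAVA 1.8, Trim Galore, STAR 2.7 and HTSeq. By the study's methods htseq-count ignored strand, and it sets aside reads that fall on more than 1 gene. Reads with no feature, 59.7 to 66.1% of the entries in a file, were left out.

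Groups came from the sample titles. GENCODE M21 gave symbols for 99.82% of identifiers, and positions and lengths. Genes with at least 5 counts in at least 1 sample (20580) were fitted in 1 model of the 4 groups with edgeR 4.0.16 (R 4.3.3, limma 3.58.1), TMM normalization and the quasi-likelihood F-test, two-sided, with Benjamini-Hochberg adjustment over all tested genes. A call needed an adjusted p under 0.05 and a fold change over 1.3. The contrasts were cKO against WT in each subset, their difference and average, and CD103-CD11b+ against CD103+CD11b- DCs in each genotype. CPM used TMM library sizes, and levels per kilobase the merged exon length. The fit was tested on simulated data with known changes. Totals of 2161929 to 5863484 counts per sample set the precision of low genes, and the limit of 3 counts covers counting error only. Nothing in the labels says that same-numbered samples share a mouse. Deviations of same-numbered samples from their group means correlated at 0.11, 0.32 and 0.35 between the cKO subsets. In each other comparison made here at least 1 pair was under 0.1. A block by number is therefore given between the cKO subsets for the members whose call it changed, Il22ra2, Il6 and Il27. P-values rest on the spread between samples within groups, pooled over the 4 groups (8 residual degrees of freedom) and drawn towards that of other genes.

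The members and all gene lists were chosen with earlier results of these data known. All 10 members are named. Of each list, genes called in a cKO comparison or between the WT subsets are named, at most 6 by smallest p. A result among these lists is not reported here. The 10 genes with the highest Pearson r with Il22ra2 (log2 CPM, prior count 2) are named as a description. Alternatives were other filters, RLE scaling, DESeq2 1.42.0, other thresholds, replicate blocks, a fit of 6 samples, leaving out each sample, and another gene length.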

Additional observations from a re-analysis of the deposited data

Results flagged for a closer look

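2 genes among the markers set beside the members had a cKO effect that differed between the subsets. For Clec4a4, a lectin of CD103+CD11b+ DCs, the cKO effect in CD103-CD11b+ DCs exceeded that in CD103+CD11b- DCs by 5.98 on the log2 scale (SE 0.64, adjusted p = 0.00685, quasi-likelihood F-test of edgeR after Benjamini-Hochberg correction). The gene was lower in the cKO samples of CD103+CD11b- DCs (-4.27) and higher in those of CD103-CD11b+ DCs (1.71). For Trem1, a receptor of myeloid cells, the fitted difference was 9.52 (adjusted p = 0.00685 by the same edgeR test), but all 3 cKO CD103+CD11b- samples held 0 counts, so that its size depends on the prior count and is no bound. None of the 10 members had a difference of this kind that passed the threshold, with 2 at an unadjusted p under 0.05, Il22ra2 and Ebi3. A search for single samples far from the rest of their group was not made, since each group had 3 samples.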

How the results depend on the processing

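For each comparison the number of members called was recomputed under each alternative. In CD103+CD11b- DCs (1 of 10 called between genotypes) it was 0 with at least 5 counts in every sample, which drops Il22ra2, and 2 with DESeq2 or a fit of the 6 samples. In CD103-CD11b+ DCs (2 called) it was 3 with filterByExpr (Il15 added) or no filter (Il12b added), 2 with at least 5 counts in every sample (Il15 in place of Il22ra2), 4 with DESeq2, 1 at an adjusted p under 0.01, and 0 with the 6 samples alone, where Il22ra2 was at -4.25. Averaged over the subsets (4 called) it was 2 with at least 5 counts in every sample and 1 at an adjusted p under 0.01. Between the WT subsets (3 called) it was 2 with at least 5 counts in every sample, 1 at an adjusted p under 0.01 and 1 with the 6 samples. Between the cKO subsets (1 called) it was 2 with filterByExpr, no filter or the 6 samples, 0 with at least 5 counts in every sample, and 4 with DESeq2 or the replicate block within genotype. Leaving out 1 sample gave 1 to 1, 2 to 3, 0 to 0 (the difference between subsets), 1 to 4, 1 to 3 and 1 to 3 calls in the order CD103+CD11b-, CD103-CD11b+, difference, average, WT subsets and cKO subsets. The cause of these changes was not tested, beyond the filter's removal of Il22ra2 and Il12b.

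Replicate numbers were checked for pairing: samples of 1 genotype with the same number in the 2 subsets had correlations of deviations from -0.09 to 0.36, and 10 of 12 samples were closest to their own number there, against 5 of 12 between genotypes of 1 subset. Correlations under 0.1 were present in every comparison made but that of the cKO subsets. With the replicate block over all groups the calls were 1, 3 (Il15 added, adjusted p = 0.0214, edgeR) and 5 (Tnf added, adjusted p = 0.0427, edgeR) within CD103+CD11b-, within CD103-CD11b+ and averaged, and 0 for the difference.

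The direction turned for these values. The log2 difference of Il22ra2 between the WT subsets was -0.011 with filterByExpr, -0.019 with the replicate block within genotype and -0.18 to 0.24 without 1 sample. That of Tnf was 0.025 with at least 5 counts in every sample, 0.015 with RLE, 0.019 with DESeq2 and -0.57 to 0.24 without 1 sample. Without 1 sample, Il6 ranged from -1.20 to 0.025 in CD103-CD11b+ DCs and -0.20 to 0.99 between the WT subsets, and the difference of Tnf from -0.85 to 0.18. Il10 ranged from -1.94 to 0.45 in CD103+CD11b- DCs, -0.57 to 0.70 averaged and -0.30 to 2.48 between the WT subsets. Il23a ranged from -1.87 to 0.76 in CD103+CD11b- DCs and -2.06 to 0.92 for the difference, which was -0.80 with the replicate block and -0.79 with it within genotype, a fit added after the data were seen. Il12a ranged from -1.90 to 3.25 in CD103-CD11b+ DCs, -0.58 to 4.57 for the difference, -1.61 to 0.96 averaged and -3.64 to 0.70 between the cKO subsets, and was 0.031 averaged with DESeq2. At 21 counts over 12 samples, its fitted values depend on the prior count and their sign is not interpretable.

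Levels per kilobase moved by more than 1 SD with the longest transcript's length for Il15 in 3 groups (12.2 in WT CD103+CD11b-, 23.2 in cKO CD103+CD11b- and 14.8 in cKO CD103-CD11b+ DCs) and Il12a in 1 (0.745 in WT CD103+CD11b- DCs), of 40 levels.

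Limits are the 3 samples per group, the low counts of Il12a, Il23a and Il10, and sorts whose purity was not measured here beyond marker genes. The counts give RNA, not secreted protein.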

Other observations

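Some members were ordered by replicate number in the same way in several groups. Tnf was highest in replicate 3 in 4 of 4 groups, and so was Il6. Il27 was highest in replicate 2 in 4 of 4 groups. Il23a and Ebi3 were highest in replicate 3, and Il15 in replicate 2, in 3 of 4 groups. For Il22ra2, Il12a, Il12b and Il10 no replicate number was highest in more than 2 of 4 groups. The pattern was noticed after the values were seen and was not tested.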
